A study of Mus musculus with 8 samples.

Results

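The AP-1, EGR and NR4A immediate early genes are represented here by 10 genes chosen by name, *Fos*, *Fosb*, *Jun*, *Junb*, *Jund*, *Egr1*, *Egr2*, *Nr4a1*, *Nr4a2* and *Nr4a3*, out of 32390 rows of a table of RNA-seq read counts. The RNA came from whole gastrocnemius, a calf muscle, of aged male mice on a standard chow. There were 4 control mice, *Nox4* fl/fl, which carry floxed *Nox4* alleles and no Cre, and 4 MckCre:*Nox4* fl/fl mice, referred to as NOX4-deficient, in which the muscle creatine kinase promoter drives Cre. All were 21 months of age by the labels, which place them in a single batch. NOX4 is an NADPH oxidase that produces hydrogen peroxide, and the comparison of the genotypes asks what its loss from muscle does to transcription in old age. The *Mck* promoter acts mainly in skeletal muscle and less in heart. Endothelial, nerve, connective tissue and blood-derived cells of the muscle should therefore retain *Nox4*, which was not measured by cell type.

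Immediate early genes are transcribed within minutes of a stimulus, without new protein synthesis, when kinases act on factors already bound at their promoters, such as SRF with its partners and CREB. AP-1 is a dimer of FOS and JUN family proteins, EGR proteins are zinc finger factors, and NR4A proteins are orphan nuclear receptors that work without a known natural hormone. In skeletal muscle, contraction, adrenergic signals, stretch and injury are known inducers, and the transcripts are short-lived, so that their level depends on what happened shortly before the tissue was frozen. The handling of the mice before tissue collection is not given in the labels.

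Library totals ran from 16350548 to 19804661 counts. Marker transcripts of fast glycolytic fibers, which make up most of this muscle, summed to between 142100 and 178800 CPM (counts per 1000000 counts of the scaled library) in each library, and 0 of the markers were at 0. *Nox4* itself had 85, 48, 35 and 70 counts in the controls and 29, 43, 42 and 37 in the NOX4-deficient muscles. Its level averaged 3.27 CPM ± 1.42 (SD, n = 4) against 2.07 CPM ± 0.220 (SD, n = 4). The groups overlapped and the adjusted p was 0.207 (edgeR quasi-likelihood test, Benjamini-Hochberg adjustment over 12725 rows). Reads from outside the floxed part and from cells without Cre may enter this count, and their share was not tested.

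None of the 10 genes was called, that is, passed an adjusted p under 0.05 with a log2 fold change beyond 0.5 in edgeR. Among all rows tested, 3.48% were called lower and 2.68% were called higher in NOX4-deficient muscle. Of the 10 genes, 2 had an unadjusted p under 0.05, *Jun* and *Nr4a3*, both with lower means in the NOX4-deficient group, against 23.2% of all rows in either direction. DESeq2 and pydeseq2 each called 1 gene, *Jun*, and limma-voom called 1, *Nr4a3*. A fit with a replicate block called both, as the last section describes with other settings. By sign, 6 of the 10 fold changes were negative and 4 were positive. Their median log2 fold change was -0.12, beside 0.01 over all rows. The NR4A, JUN and EGR genes each held fold changes of both signs, and both FOS genes had negative ones, with *Fos* itself at -0.01. In bulk muscle, fewer cells of a type and less RNA per cell cannot be told apart.

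**Figure D1:**
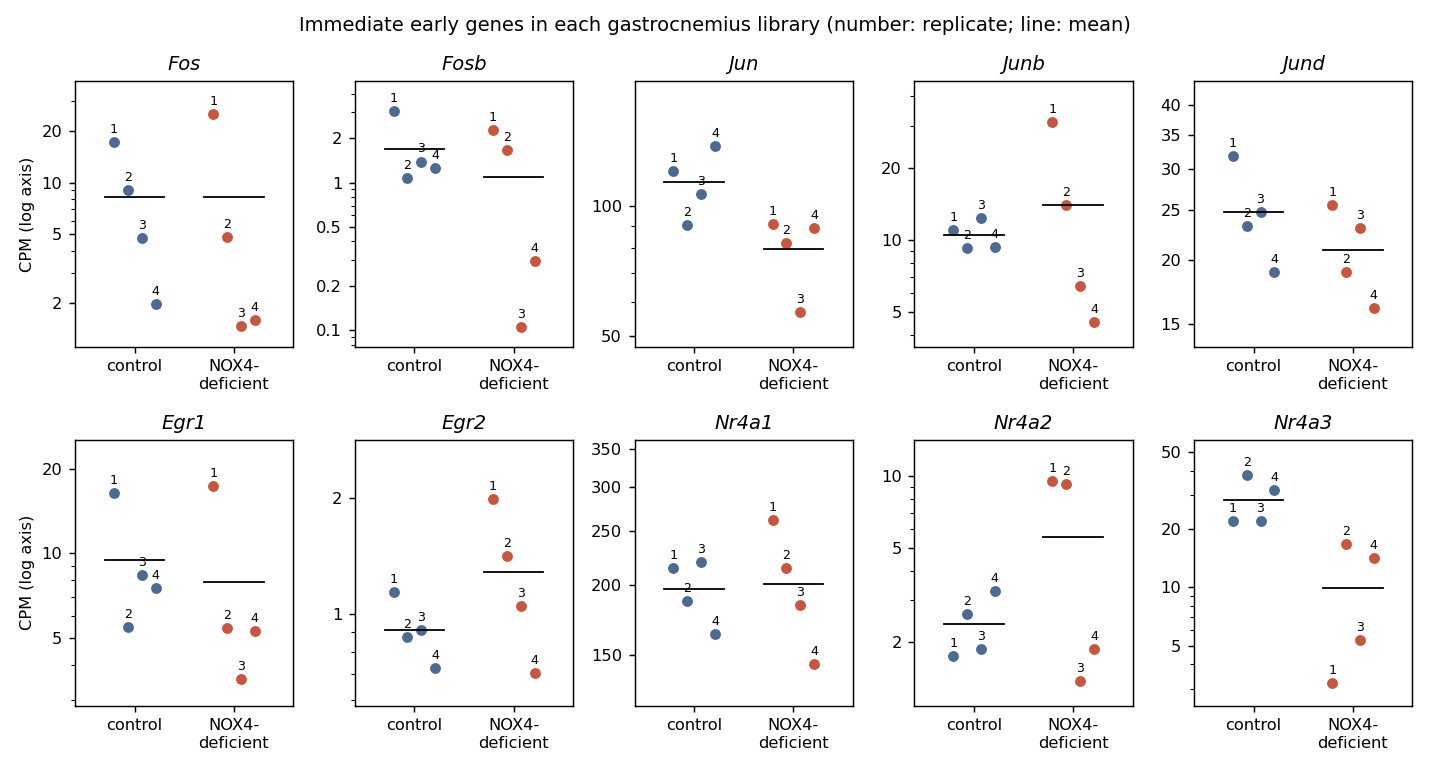
Level of each of the 10 genes in CPM (log axis) in every control and NOX4-deficient library, with the replicate number as the point and the bar at the group mean. Only the *Nr4a3* groups do not overlap, and NOX4-deficient replicates 1 and 2 stand above replicates 3 and 4 for *Fos*, *Fosb*, *Junb* and *Nr4a2*.

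The NR4A receptors held both the lowest and the highest fold change of the 10 genes. *Nr4a3*, which encodes NOR-1, a receptor strongly induced in muscle by beta-adrenergic signals and exercise, had 22.0, 37.9, 22.0 and 31.8 CPM in the control muscles. The NOX4-deficient muscles had 3.19, 16.8, 5.36 and 14.2 CPM. The highest NOX4-deficient library was below the lowest control library, so the groups did not overlap, which held for 1 of the 10 genes and for 16.2% of all rows. The means were 28.4 CPM ± 7.83 (SD, n = 4) and 9.90 CPM ± 6.63 (SD, n = 4). The log2 fold change was -1.52 (SE 0.47), with a 95% interval of -2.60 to -0.44 and an adjusted p of 0.0938 in edgeR. Limma-voom gave -1.77 with an adjusted p of 0.0243, and over 19 alternatives the adjusted p ran from 0.0111 to 0.242. Replicates 1 and 3 were the lower pair in both genotypes.

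*Nr4a2*, which encodes NURR1, a receptor best known for its role in dopamine neurons, was scarce. Its counts were 29, 51, 35 and 63 in the controls, or 1.74, 2.62, 1.87 and 3.28 CPM. NOX4-deficient replicates 1 and 2 had 159 and 183 counts, or 9.57 and 9.25 CPM, whereas replicates 3 and 4 had 26 and 32, or 1.37 and 1.88 CPM. Thus 2 libraries lay above every control and the other two lay at or below the middle of the control range. Their mean gave a log2 fold change of 1.21 (SE 0.61, 95% interval -0.16 to 2.57), with an adjusted p of 0.273 in edgeR.

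*Nr4a1*, which encodes NUR77, a receptor linked to glucose handling in muscle, was the most abundant of the NR4A genes. It stood at 215, 187, 220 and 164 CPM in the controls and at 262, 215, 185 and 144 CPM in the NOX4-deficient muscles. These ranges overlapped throughout. Its log2 fold change was 0.03 (SE 0.16), and the 95% interval of -0.32 to 0.39 bounds the change in either direction. The 7 glucose and glycogen genes listed with *Nr4a1*, among them the glucose transporter gene *Slc2a4* and the glycogen phosphorylase gene *Pygm*, held 0 calls in edgeR, with 1 unadjusted p under 0.05 and a median log2 fold change of 0.16. Over all rows, 3.48% were called lower, 2.68% were called higher and 23.2% had an unadjusted p under 0.05.

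Stretches upstream of the transcription start are shown for the NR4A genes, which hold the lowest and the highest fold change of the 10, and for *Fos* and *Jun*, the founding AP-1 genes, because the inputs that drive immediate early genes act there. The sequences are RefSeq's for GRCm38.p6, written 5′ to 3′ on the coding strand and ending at the base before the start. For the first 4, capitals mark TGACG, the core of the cAMP response element (CRE) bound by CREB, on either strand (CGTCA on the reverse). For *Jun*, capitals mark a box for MEF2, a muscle transcription factor. *Nr4a3* lies at chr4:48045055-48045304 (+), *Nr4a1* at chr15:101266596-101266845 (+) and *Nr4a2* at chr2:57124004-57124253 (-). The *Fos* stretch is chr12:85473740-85473889 (+) and that of *Jun* chr4:95052223-95052332 (-).
Nr4a3: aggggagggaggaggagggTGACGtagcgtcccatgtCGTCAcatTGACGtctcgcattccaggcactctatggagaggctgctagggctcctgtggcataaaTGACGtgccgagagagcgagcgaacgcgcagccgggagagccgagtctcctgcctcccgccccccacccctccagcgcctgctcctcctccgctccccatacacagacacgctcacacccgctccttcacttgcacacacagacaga
Nr4a1: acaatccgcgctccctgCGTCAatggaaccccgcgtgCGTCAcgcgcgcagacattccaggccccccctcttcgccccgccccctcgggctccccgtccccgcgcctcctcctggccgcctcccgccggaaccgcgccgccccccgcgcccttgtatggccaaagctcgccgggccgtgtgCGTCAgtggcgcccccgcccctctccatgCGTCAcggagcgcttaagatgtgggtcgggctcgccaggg
Nr4a2: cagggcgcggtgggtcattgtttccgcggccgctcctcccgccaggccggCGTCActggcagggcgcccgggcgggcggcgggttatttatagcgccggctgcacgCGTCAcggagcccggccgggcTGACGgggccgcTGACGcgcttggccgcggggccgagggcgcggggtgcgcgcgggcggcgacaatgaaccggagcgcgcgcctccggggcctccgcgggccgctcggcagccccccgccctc
Fos: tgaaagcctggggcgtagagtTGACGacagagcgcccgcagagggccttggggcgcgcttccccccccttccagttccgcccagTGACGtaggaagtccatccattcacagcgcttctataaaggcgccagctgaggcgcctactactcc
Jun: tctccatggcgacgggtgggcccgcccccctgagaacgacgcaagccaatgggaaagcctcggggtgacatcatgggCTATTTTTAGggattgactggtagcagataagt

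The NR4A windows each hold 4 CRE cores, although these genes differed in level and in fold change. The match nearest the start begins 40 bases before it in *Nr4a1*, 111 in *Nr4a2* and 147 in *Nr4a3*. The *Fos* stretch holds 2, the nearer one 66 bases before the start, and the MEF2 box of *Jun* begins 33 bases before the start. A promoter entry was matched for 9 of the 10 genes. Within 250 bases upstream, 7 of the 9 hold TGACG, against 19.8% of 27025 genes with an entry, *Jun* and *Jund* being without. The EGR motif GCGNGGGCG is in 3 of 9 (*Fosb*, *Nr4a1*, *Nr4a2*) against 5.33% of genes. The MEF2 box is in *Jun* and *Nr4a2*, 2 of 9, against 3.42%, and the CArG box bound by SRF is in *Egr2* alone, 1 of 9, against 1.62%. *Egr2* was searched in 5 windows and each other gene with an entry in 1. The full CRE TGACGTCA, which contains the core, the AP-1 site TGANTCA and the NR4A site AAAGGTCA are in 0 of 9, against 1.77%, 7.82% and 1.55% of genes. Both strands were searched, but other spellings of these sites and bases further upstream were not, so a site of these kinds may be missed. A match is a string of letters and not a measured binding site.

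Among the AP-1 genes, *Jun*, which encodes c-JUN, the strongest transactivator of the JUN proteins, was the gene whose 95% interval excluded 0. It stood at 121, 90.5, 106 and 138 CPM in the controls and at 91.0, 82.0, 56.8 and 89.1 CPM in the NOX4-deficient muscles. NOX4-deficient replicate 1 lay just above control replicate 2, and the remaining NOX4-deficient libraries lay below every control. The means were 114 CPM ± 20.1 (SD, n = 4) and 79.7 CPM ± 15.7 (SD, n = 4), and the log2 fold change was -0.51 (SE 0.16, 95% interval -0.87 to -0.16). The adjusted p was 0.0744 in edgeR and 0.0352 in DESeq2, and it ran from 0.0243 to 0.195 over 19 alternatives. Its fold change lies close to the minimum of 0.5 that a call required.

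*Junb*, which encodes a JUN protein that can restrain c-JUN and that is tied to muscle fiber size, had much the same level in every control, at 10.97, 9.21, 12.3 and 9.31 CPM. The NOX4-deficient muscles had 31.1, 14.01, 6.41 and 4.51 CPM. Replicates 1 and 2 lay above all controls and replicates 3 and 4 below all controls. The log2 fold change of 0.42 (SE 0.53, 95% interval -0.79 to 1.63) therefore averages libraries on opposite sides of the control level, and its adjusted p was 0.691 in edgeR. *Jund*, the member of the family that is expressed in resting cells, had a similar spread in both genotypes. It ranged from 18.9 to 31.9 CPM in controls and from 16.1 to 25.6 CPM in NOX4-deficient muscles, with a log2 fold change of -0.24 (SE 0.18, 95% interval -0.62 to 0.14).

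*Fos*, the classical immediate early gene whose protein needs a JUN partner to bind DNA, had the largest SD of log2 CPM of the 10 genes in both genotypes. The controls stood at 17.1, 9.06, 4.76 and 1.98 CPM and the NOX4-deficient muscles at 25.0, 4.804, 1.47 and 1.58 CPM. Both groups thus held a high replicate 1 and a low replicate 4. The means were 8.23 CPM ± 6.61 (SD, n = 4) and 8.22 CPM ± 11.3 (SD, n = 4). The log2 fold change was -0.01 with an SE of 1.04, and the 95% interval of -2.47 to 2.46 shows how little these libraries can say of a genotype difference in *Fos*.

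*Fosb*, whose protein accumulates with repeated stimulation in brain as a stable splice form, was near the lower limit of detection. Its counts were 51, 21, 26 and 24 in the controls and 38, 33, 2 and 5 in the NOX4-deficient muscles. NOX4-deficient replicates 3 and 4 lay below every other library, at 0.11 and 0.29 CPM, while replicates 1 and 2 lay within the control range of 1.08 to 3.06 CPM. For *Fosb* the log2 fold change was -0.63 (SE 0.69, 95% interval -2.15 to 0.89, adjusted p 0.637 in edgeR).

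**Figure D2:**
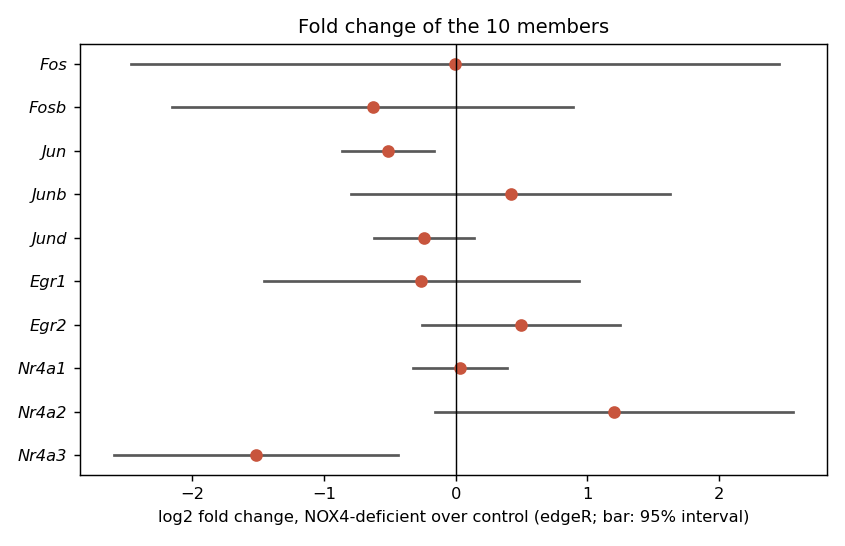
Estimated log2 fold change of each gene, NOX4-deficient over control, from edgeR (points) with its 95% interval (bars). The intervals of *Jun* and *Nr4a3* lie below 0, that of *Fos* runs from -2.47 to 2.46, and no adjusted p is under 0.05.

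*Egr1*, which encodes a zinc finger factor induced by growth factors and stretch, had 1 high library in each group. The controls stood at 16.4, 5.45, 8.35 and 7.54 CPM and the NOX4-deficient muscles at 17.3, 5.41, 3.57 and 5.28 CPM. Replicate 1 was the highest in both groups, and NOX4-deficient replicates 2 to 4 lay below all controls, although replicate 2 did so by little. Between genotypes, the log2 fold change was -0.26 (SE 0.53, 95% interval -1.46 to 0.94).

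*Egr2*, which encodes the factor that drives myelination in Schwann cells, had 14 to 19 counts in the controls and 33, 28, 20 and 12 in the NOX4-deficient muscles. These are 0.73 to 1.14 CPM, and 1.99, 1.42, 1.05 and 0.70 CPM. NOX4-deficient replicates 1 and 2 were above every control. A log2 fold change of 0.50 (SE 0.35, 95% interval -0.25 to 1.25) had an adjusted p of 0.429 in edgeR.

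The clearest common feature of these genes was the spread among the NOX4-deficient mice. The SD of log2 CPM was larger in the NOX4-deficient group for 9 of the 10 genes, *Jund* being the exception, and for 60.4% of all rows. In the NOX4-deficient group the SD was 1.86 for *Fos*, 1.68 for *Fosb*, 1.44 for *Nr4a2*, 1.23 for *Junb*, 1.13 for *Nr4a3* and 0.97 for *Egr1*, and 95% of all rows lay under 0.672. In the controls, 2 of the 10 exceeded the corresponding level of 0.654, *Fos* at 1.30 and *Egr1* at 0.66. *Junb* gives the plainest contrast, with a highest library 1.34 times the lowest in controls and 6.89 times the lowest in NOX4-deficient muscles. For *Fosb* these ratios were 2.83 and 21.7, for *Nr4a2* 1.88 and 7, and for *Fos* 8.68 and 17.0. The difference in spread between genotypes was not tested. Several of these genes share their high and low libraries, so the 9 are not separate observations. For *Fos*, *Fosb*, *Egr2* and *Nr4a2* counting error adds to the spread, since single libraries held under 50 counts.

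**Figure D3:**
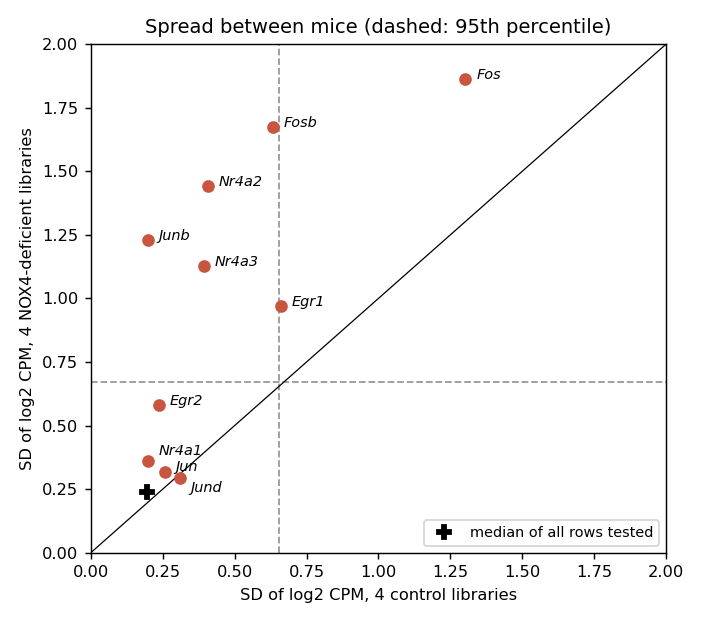
The SD of log2 CPM over 4 mice in the controls (x axis) against the NOX4-deficient group (y axis) for each of the 10 genes, with the level under which 95% of all rows lie in each group. *Fos*, *Fosb*, *Junb*, *Egr1*, *Nr4a2* and *Nr4a3* lie above that level in the NOX4-deficient group.

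The same NOX4-deficient libraries were high for several genes. Replicates 1 and 2 exceeded replicates 3 and 4 for *Fos*, *Fosb*, *Junb*, *Egr1*, *Egr2*, *Nr4a1* and *Nr4a2*, whereas for *Nr4a3* replicates 2 and 4 were the higher ones. After the genotype mean was removed, the log2 levels of 45 pairs of the 10 genes had a median Pearson r of 0.60 over the 8 libraries, and 12 pairs had r above 0.8. *Egr2* and *Nr4a1* had the highest, at 0.96, followed by *Junb* with *Egr2* at 0.93 and *Junb* with *Nr4a1* at 0.91. *Fosb* with *Nr4a2* had 0.82. There were 8 negative values, among them *Nr4a3* with *Jund* at -0.75 and with *Nr4a1* at -0.61. The genes share libraries, depth and scaling, so these values are a description with no test.

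**Figure D4:**
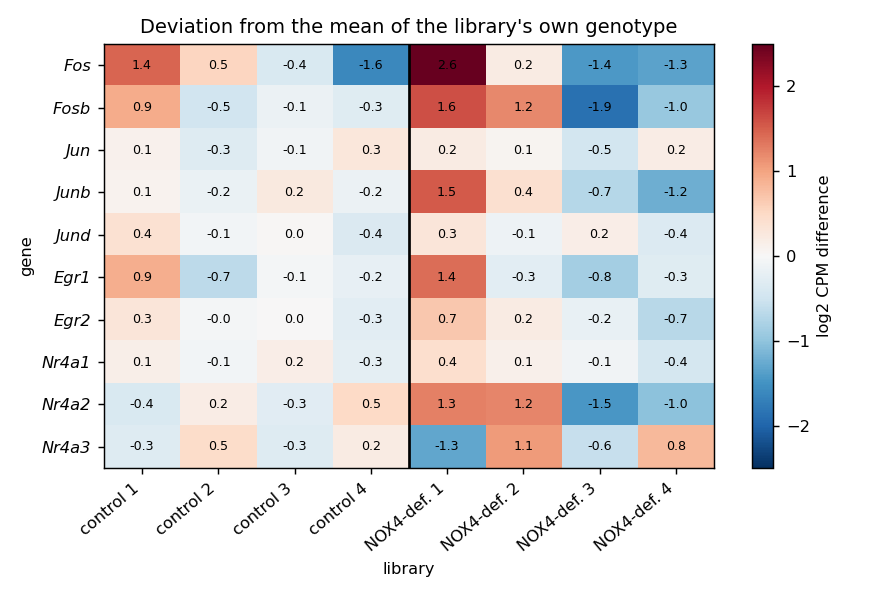
Deviation of log2 CPM from the genotype mean for each of the 10 genes (rows) in each of the 8 libraries (columns). NOX4-deficient replicates 1 and 2 are above their group mean for *Fosb*, *Junb* and *Nr4a2* and replicates 3 and 4 are below it, while *Nr4a3* is low in NOX4-deficient replicates 1 and 3.

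Over all rows tested, the row most like *Nr4a3* on this measure was *Slc22a15*, followed by *Pcm1*, both with r of 0.995 over 8 libraries. For *Nr4a1* these were *Mbd4* (0.986) and *Relt* (0.978), and for *Nr4a2* *Mical1* (0.984) and *Fam20c* (0.974). The rows most like *Jun* were *Gm10130* (0.972) and *Hectd2os* (0.971), those most like *Junb* *Yju2* (0.986) and *Eml2* (0.976), and those most like *Jund* *Itm2b* (0.994) and *Fabp5* (0.984). *Fos* was closest to *Zfp607b* (0.965) and *Umps* (0.957), and *Fosb* to *Fst* (0.982) and *Tmem178b* (0.956). *Egr1* was closest to *Lgals9* (0.955) and *Txndc17* (0.952), and *Egr2* to *Pik3r2* (0.993) and *Relt* (0.981). Each is the highest of 12725 rows over few libraries, so values this high are found for every gene.

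Per kilobase of the longest annotated transcript, *Nr4a1* was the most abundant of the 10 genes in controls, at 77.0 CPM per kilobase ± 10.3 (SD, n = 4). *Jun* followed at 35.7 ± 6.32 and *Jund* at 14.8 ± 3.23 on the same scale, and the control ranges of these top 3 genes did not overlap each other or those below. Next came *Junb* (5.78 ± 0.817), *Nr4a3* (4.97 ± 1.37), *Fos* (3.91 ± 3.14) and *Egr1* (2.11 ± 1.07), whose neighbors in this order overlapped in range. *Nr4a2* (0.666 ± 0.200), *Fosb* (0.448 ± 0.243) and *Egr2* (0.308 ± 0.0573) were lowest, again with neighbors that overlapped. In NOX4-deficient muscle *Nr4a3* stood at 1.73 ± 1.16 and *Jun* at 25.0 ± 4.94, and *Nr4a1* and *Jun* were again the top genes by mean. *Nr4a1* made up 90.8% to 95.2% of the NR4A level per length in controls and 93.8% to 98.2% in NOX4-deficient muscle, and *Nr4a3* made up 4.25% to 8.21% and 0.527% to 4.18%. Thus *Nr4a3*, the only gene of the family whose groups did not overlap, was a small part of it.

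Relatives of the 10 genes outside the selection gave 1 call among 5 tested (20% called lower), against 3.48% of all rows. *Atf3*, which encodes a stress-induced factor that pairs with JUN proteins, stood at 25.6, 20.5, 16.5 and 19.3 CPM in controls and fell to 9.20, 7.48, 3.68 and 11.7 CPM, with a log2 fold change of -1.36 (SE 0.28) and an adjusted p of 0.0175 in edgeR. The groups did not overlap. *Fosl2*, which encodes FRA-2, stood at 13.97 to 18.1 CPM in controls and at 22.5, 36.5, 15.2 and 10.2 CPM in NOX4-deficient replicates 1 to 4 (log2 fold change 0.42, adjusted p 0.482 in edgeR). *Jdp2*, *Atf2* and *Atf7* had log2 fold changes of -0.28, -0.04 and 0.18. Of the 6 relatives with too few counts to test, *Egr3* had 10, 10, 9 and 9 counts in controls and 61, 41, 1 and 2 in NOX4-deficient replicates 1 to 4. The high and low libraries of *Egr3* were those of *Junb* and *Nr4a2*. *Fosl1*, *Egr4*, *Batf*, *Batf2* and *Batf3* had at most 5 counts in any library.

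Of 16 genes whose products restrain the response, 1 (6.25%) was called lower and 0 higher in edgeR, against 3.48% and 2.68% of all rows. Of the 16, 4 had an unadjusted p under 0.05, beside 23.2% of all rows, and the median log2 fold change was -0.01. The called gene was *Zfp36*, whose protein tristetraprolin binds AU-rich elements and speeds the decay of short-lived transcripts. It stood at 27.0, 29.7, 39.8 and 30.5 CPM in controls and fell to 18.3, 12.0, 12.5 and 13.8 CPM (log2 fold change -1.17, SE 0.16, adjusted p 0.00144 in edgeR). Among 23 kinases and factors upstream of the 10 genes, 1 (4.35%) was called higher and 0 lower, against 2.68% and 3.48% of all rows. An unadjusted p under 0.05 was found for 6, beside 23.2% of all rows, and the median log2 fold change was 0.06. The gene called higher was *Mrtfa*, which encodes an actin-regulated partner of SRF. It stood at 8.09, 10.96, 11.1 and 8.21 CPM in controls and rose to 27.4, 33.3, 29.3 and 25.4 CPM (log2 fold change 1.59, SE 0.14, adjusted p 8.4e-05 in edgeR). *Srf* itself had a log2 fold change of 0.23 and an adjusted p of 0.115, with groups that did not overlap, a description given after its values were seen.

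Of 38 tested immediate early genes outside these families, 6 were called lower (15.8%) and 0 higher in edgeR, against 3.48% and 2.68% of all rows. An unadjusted p under 0.05 was found for 16, 3 of them with a higher mean, beside 23.2% of all rows. By sign 25 were lower and 13 higher, and the median log2 fold change was -0.21. The 3 with the smallest p-values were *Nfil3*, *Maff* and *Ppp1r15a*. *Nfil3*, which encodes a bZIP repressor of the clock output, stood at 49.5, 61.6, 56.6 and 84.75 CPM in controls and fell to 14.1, 18.5, 18.8 and 25.1 CPM (log2 fold change -1.72, SE 0.19, adjusted p 5.96e-04 in edgeR). *Maff*, which encodes a small MAF protein, stood at 5.30 to 6.59 CPM and fell to 2.11 to 3.07 CPM (log2 fold change -1.29). *Ppp1r15a*, which encodes GADD34, a phosphatase subunit of the stress response, fell by 0.99 on the log2 scale. The other 3 called lower were *Errfi1* (-0.81), *Ier5* (-0.72) and *Socs3* (-1.02). *Socs3* was not called when control replicate 1 or 2, or NOX4-deficient replicate 2 or 3, was left out. Unlike *Fos* or *Junb*, *Nfil3* and *Maff* had no overlap between the groups in any library.

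**Figure D5:**
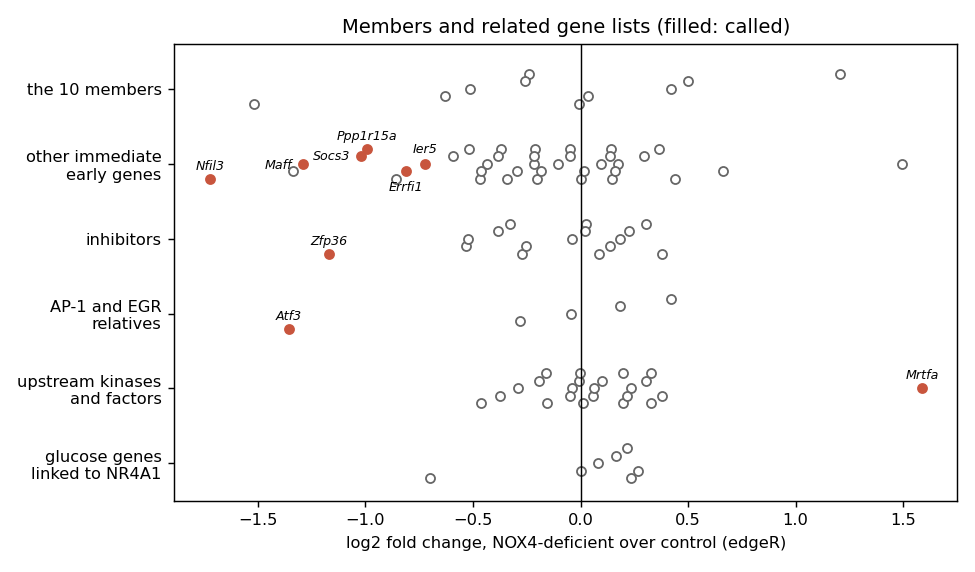
Estimated log2 fold change, NOX4-deficient over control, of the 10 genes and of the tested genes of each related list, filled where called by edgeR at an adjusted p under 0.05 and a log2 fold change beyond 0.5. None of the 10 genes is called, 6 of the other immediate early genes, *Zfp36* and *Atf3* are called lower, and *Mrtfa* is called higher.

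The summed levels of markers of other cell types moved with some of these patterns, and their part in the results was not tested. Beside the counts below, 3.48% of all rows were called lower, 2.68% were called higher and 23.2% had an unadjusted p under 0.05. The 5 Schwann cell markers, which include *Mbp*, a gene of the myelin sheath, and *Pmp22*, summed to 57.36 to 78.14 CPM in controls and to 93.97, 122.1, 60.65 and 52.59 CPM in NOX4-deficient replicates 1 to 4. The replicates with high *Nr4a2*, *Junb* and *Egr2* were therefore also those with the higher sums, and all 5 markers had positive fold changes, with 0 called by edgeR and 1 at an unadjusted p under 0.05. Beside *Nr4a3*, whose groups did not overlap, stood the blood markers, for which 3 of the 5 had a row. They summed to 47.6 to 52.7 CPM in controls and to 158.9, 79.95, 118 and 72.3 CPM in NOX4-deficient replicates 1 to 4, and 2 of the 3 were called higher. The libraries lowest in *Nr4a3*, NOX4-deficient replicates 1 and 3, had the highest of these sums. Within the controls this did not hold, since replicate 2, the highest in *Nr4a3*, also had the highest sum, at 52.7 CPM. The 11 macrophage and leukocyte markers summed to 40.6 to 98.8 CPM in controls and 24.0 to 48.8 CPM in NOX4-deficient muscle, with 1 called lower. The highest sum was that of control replicate 1, in which *Fos*, *Fosb* and *Egr1* were the highest of the controls. In the NOX4-deficient group the reverse held. Replicate 3 had that group's highest sum, 48.8 CPM, and its lowest *Fos*, *Fosb* and *Egr1*. The 6 satellite cell markers summed to 60.6 to 81.5 CPM and 41.0 to 44.9 CPM. This sum was carried by *Sdc4*, the 1 marker called lower, at a mean of 53.4 CPM in controls and 24.4 CPM in NOX4-deficient muscle, while 3 of the 5 tested markers, *Pax7*, *Vcam1* and *Chodl*, had positive fold changes and the median log2 fold change of the list was 0.14. Of the 10 endothelial markers 1 was called higher, *Vwf* (log2 fold change 0.74, adjusted p 0.0129 in edgeR), without overlap between the groups. Summed endothelial markers (281 to 340.5 and 308 to 348 CPM), fibroblast and tendon markers (494 to 844 and 535 to 849 CPM), adipocyte markers (163 to 299 and 160 to 210 CPM) and slow fiber markers (294 to 640 and 386 to 1155 CPM) overlapped between the genotypes, as did smooth muscle markers (363 to 449 and 434 to 557.5 CPM). No marker with a row was at 0 in every library.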

How the data were processed

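Gastrocnemius RNA was poly(A)-selected and sequenced as unstranded paired-end libraries by the authors, who aligned reads with STAR to GRCm39 per the labels' processing notes (versions not given there). The paper's methods name the nf-core RNA-seq pipeline; the annotation and counter settings are not given in the sources used here. The deposited values are raw read counts, unnormalized, with 32390 rows and 16350548 to 19804661 counts per library. Without strand, reads of overlapping antisense genes cannot be told apart, and p-values measure the spread between mice. The 10 genes and the lists were chosen with earlier results of these data known. A repeated gene name took the row with the most counts. Counts were fitted with edgeR 4.0.16 (R 4.3.3, TMM, filterByExpr, robust quasi-likelihood, genotype only, all 8 libraries), with Benjamini-Hochberg adjustment over 12725 rows. Calls needed an adjusted p under 0.05 and a log2 fold change beyond 0.5. All 10 passed the filter, so no separate permutation test was needed. CPM are TMM-scaled; lengths are of the longest GENCODE transcript (GRCm38), matched by name. Named genes were the 10, *Nox4*, the called genes of each list with the 3 smallest p-values, relatives outside the selection and the 2 rows closest to each of the 10; other names were added after their values were seen. Alternatives used DESeq2 1.42.0, pydeseq2 0.5.4, limma 3.58.1, other filters and scalings, and fits without each library. The fit was tested on simulated data. A marker gene is not reported here and was left out of its list. Within genotypes, 12 library pairs were compared, and none agreed within sampling noise. No column of values was left unmatched.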

Additional observations from a re-analysis of the deposited data

Results flagged for a closer look

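Over 22 groups of 4 libraries examined, 3 held a library whose gap to its nearest neighbor took most of the group's range. These gaps passed the 95% critical value of Dixon's test for 4 values. Chance passes it in about 1 group in 20 where values are normally distributed. The test was run on CPM and library totals and not on the log2 scale, on which these gaps were not examined. *Fos* in NOX4-deficient replicate 1, at 25.0 CPM against 1.47 to 4.804 CPM in the others, had a gap of 0.859 of the range, and leaving it out gave a log2 fold change of -1.62 in place of -0.01. *Egr1* in NOX4-deficient replicate 1 had a gap of 0.866 of the range, and leaving it out gave -0.97 in place of -0.26. *Fosb* in control replicate 1, at 3.06 CPM against 1.08 to 1.39 CPM in the others, had a gap of 0.843 of the range, and leaving it out gave -0.19 in place of -0.63. None of the 3 genes was called with or without these libraries.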

How the results depend on the processing

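The number of the 10 genes called lower moved from 0 to 1 without a filter on low counts (*Jun*, adjusted p 0.0455), with a fit that was not robust (*Nr4a3*, adjusted p 0.044), with DESeq2 (*Jun*, 0.0352), with pydeseq2 (*Jun*, 0.0373) and with limma-voom (*Nr4a3*, 0.0243), and to 2 with the replicate block (*Jun*, 0.0243, and *Nr4a3*, 0.0111). The replicate numbers did not meet the rule for pairing, with same-number correlations of 0.223, 0.147, 0.041 and 0.0412, and only control replicate 1 correlated best with its own number. Leaving out any 1 library called neither gene. Other immediate early genes called lower went from 6 to 3 at an adjusted p under 0.01, and those called higher went from 0 to 1 with the replicate block (*Klf10*) and ranged from 0 to 1 when 1 library was left out (1 without NOX4-deficient replicate 4, *Arc*). *Fos* turned from -0.01 to 0.0182 with at least 10 counts in every sample, a filter that dropped *Fosb*. With 1 library left out, the log2 fold change ran from -1.62 to 0.63 for *Fos*, -0.97 to 0.14 for *Egr1*, -0.11 to 0.18 for *Nr4a1* and -0.31 to 0.73 for *Junb*, each crossing 0. *Jun*, *Jund*, *Egr2*, *Nr4a2* and *Nr4a3* kept their sign in 19 alternatives and *Fosb* in 18. Their sizes still moved. With 1 library left out, *Jund* ran from -0.35 to -0.10 and *Egr2* from 0.24 to 0.71. Limma-voom gave -1.29 for *Fosb*. The cause of these shifts was not tested. Counts under 50 in single libraries limit *Fos*, *Fosb*, *Egr2* and *Nr4a2*, and with 4 mice per genotype the interval of *Fos* is the widest of the 10.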
